A study of Homo sapiens with 20 samples.

Results

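The genes described here are those of the semaphorin, plexin, neuropilin, Eph receptor and ephrin families, chosen by symbol alone from the protein-coding genes of the human annotation (GENCODE, genome build hg38). The rule found 54 genes of 20046, namely 20 semaphorins of classes 3 to 7, 9 plexins, 2 neuropilins, 14 Eph receptors and 9 ephrins. The study compared T24, a human bladder cancer cell line that is sensitive to cisplatin, with T24R2, a resistant line derived from it by serial exposure to the drug and maintained in cisplatin. Both lines were labelled wild type, grown in RPMI with 10% fetal bovine serum and penicillin with streptomycin, and collected on day 3. RNA fragments carrying N6-methyladenosine (m6A) were pulled down with an anti-m6A antibody (NEB, E1610) and sequenced beside input RNA (MeRIP-seq), and 1 list of peaks per pull-down library was used, from 5 T24 and 5 T24R2 libraries. Each condition is a single line, and nothing in the labels says that the libraries of a line came from separate cultures, so the p-values below measure the spread between these libraries only.

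Semaphorins are secreted or membrane-bound ligands that steer growing axons and migrating cells. Plexins are their receptors, which act on small GTPases and the cytoskeleton, and neuropilins are co-receptors for the secreted class 3 semaphorins and for vascular endothelial growth factor. Eph receptors are a large family of receptor tyrosine kinases, and their ligands, the ephrins, are held on the surface of neighbouring cells by a lipid anchor (A class) or a membrane-spanning segment (B class). These pathways also regulate adhesion, repulsion and sorting of epithelial cells, EPHA2 being a widely expressed epithelial member. The m6A mark is laid on adenosine in the motif DRACH (D stands for any base but C, R for a purine and H for any base but G), and is known to be concentrated in long exons and around stop codons.

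A gene was called marked in a library where the summit of at least 1 peak fell in one of its exons. The strength of a peak is its fold enrichment of pull-down over input, given here as a percentile of all peaks of the same library's list (0 for the weakest, 100 for the strongest). The percentile removes a factor that multiplies all fold values of a library, but still depends on which other peaks its list holds. Over all 9577 peak regions called in every library, the median percentile difference, T24R2 minus T24, was 4.83 points. It was 0.07 points with percentiles taken among these regions alone. The lists hold no read counts, so the depth behind each value is unknown. A peak needs both a methylated and a sufficiently abundant transcript. The lists give no transcript level, and a difference in methylation and a difference in transcript level cannot be told apart in them.

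The T24R2 lists were longer, with 22671 to 33120 peaks against 17203 to 22901 in T24. Protein-coding genes marked per library numbered 6678 to 7570 in T24 and 7774 to 8931 in T24R2. Of 11 urothelial or epithelial marker genes 3 were marked, KRT7 in all 10 libraries, GATA3 in 5 T24 and 0 T24R2 libraries and UPK1A in 1 library of each line. Of 4 mesenchymal markers 3 were marked, VIM in 5 T24 and 4 T24R2 libraries, and COL1A1 and PDGFRB each in 1 T24 and 0 T24R2 libraries. Of 2 endothelial markers PECAM1 was marked, in all 10 libraries, and neither of 2 leukocyte markers was marked. For the guidance genes, T24 replicate 1 stood apart from its line and the results that rest on it are given with and without it. This library marked 36 of the 54 genes where the other 4 T24 libraries marked 27 to 29.

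Short stretches of transcript at 13 sites show where the peaks described below lie. Each holds the DRACH site nearest the median peak summit of a region. Only sites inside the region were taken, and only where the whole stretch lay in an exon of the gene. Stretches are printed 5′ to 3′ on the strand of the gene as DNA letters of hg38. Only the DRACH so chosen is in capitals, since some stretches hold a further DRACH in lower case. In the EPHB3 stretch a lower-case DRACH is equally near the summit. The first 8 come from the regions in which the 2 lines differed most in the number of libraries with a peak, and the distance of the motif's central A from the median summit is at most 74 nt.
EPHB1, 5′UTR, chr3:134795395-134795419, plus strand: cctctcccatAAACAcacacacaca
NRP2, coding, chr2:205697601-205697625, plus strand: gttacccccaGGACTacccctccca
SEMA3E, coding, chr7:83367936-83367960, minus strand: tatttttgccAGACAgtagagcata
SEMA4D, 3′UTR, chr9:89361659-89361683, minus strand: acaggacaccAAACTtgatgcagaa
EPHB1, coding, chr3:135106450-135106474, plus strand: tgccctgcagGGACAttcaaggcca
EPHB1, 3′UTR, chr3:135259907-135259931, plus strand: caagaaagaaGAACTgggaagtctt
EPHB3, 3′UTR, chr3:184581675-184581699, plus strand: ctggactttcGGACTcttggacttt
EPHB6, coding, chr7:142864213-142864237, plus strand: ccgacagcccTGACAgcgtttcctc

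The next 4 come from the regions called in all 10 libraries with the highest median percentile, where the motif's central A lies within 4 nt of the median summit.
EFNB3, 3′UTR, chr17:7710542-7710566, plus strand: ggtctggctgGAACTccaagtggct
EPHA4, coding, chr2:221564193-221564217, minus strand: ggcgtcatggGGACTtgcaaggaga
PLXNA3, 3′UTR, chrX:154476843-154476867, plus strand: ggagcctggcAGACAcccggacttt
PLXND1, 3′UTR, chr3:129556209-129556233, minus strand: cctgtgactcAGACTgggaaatact

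The last stretch belongs to the SEMA4B region whose percentile differed between the lines, and it was added after that value was seen.
SEMA4B, 3′UTR, chr15:90229405-90229429, plus strand: tgttgcgtgaGAACCcgtgtgcccc

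Across the 858 exonic peaks of the guidance genes the DRACH site nearest the summit was most often GGACT, in 13.2% of peaks, followed by GGACA in 10.5%. Over all 161570 exonic peaks of protein-coding genes GGACT was nearest in 7.94% and GGACA in 8.75%. Both sets count a site again in each library that called it, and the 858 peaks fall into 149 regions. The shares are thus not of independent sites, and their difference was not tested. Any DRACH lay within 50 nt of the summit on the sense strand in 89.5% ± 2.35 of guidance gene peaks per T24 library and 90.0% ± 2.46 per T24R2 library (SD, n = 5 each). The antisense strand of the same windows, which serves as the background for the motif, held one in 63.5% ± 2.54 and 65.2% ± 3.53. Over all protein-coding genes the sense shares were 90.2% ± 0.907 and 89.6% ± 0.755 and the antisense shares 71.1% ± 1.85 and 72.4% ± 0.681. The shares of the 2 lines differed by less than the spread between libraries.

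Most guidance genes were marked, and all 5 families were represented. An exonic peak was present in at least 1 library in 40 of 54 guidance genes, 74.1%, against 51.1% of all protein-coding genes. In all 10 libraries 25 guidance genes were marked, 46.3%, against 27.5% of all genes. Both neuropilins, 8 of 9 plexins and 17 of 20 semaphorins were marked, compared with 7 of 14 Eph receptors and 6 of 9 ephrins. Marking in all 10 libraries was found for both neuropilins, 6 plexins, 10 semaphorins, 3 Eph receptors and 4 ephrins. The 14 genes with no exonic peak in these lists were SEMA3G, SEMA4A, SEMA5B, PLXNA4, EPHA1, EPHA3, EPHA5, EPHA6, EPHA7, EPHA8, EPHA10, EFNA2, EFNA3 and the readthrough gene EFNA4-EFNA3. Of the 7 Eph receptors without a peak all are of the A class, and of the A class EPHA2 and EPHA4 were marked.

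**Figure D1:**
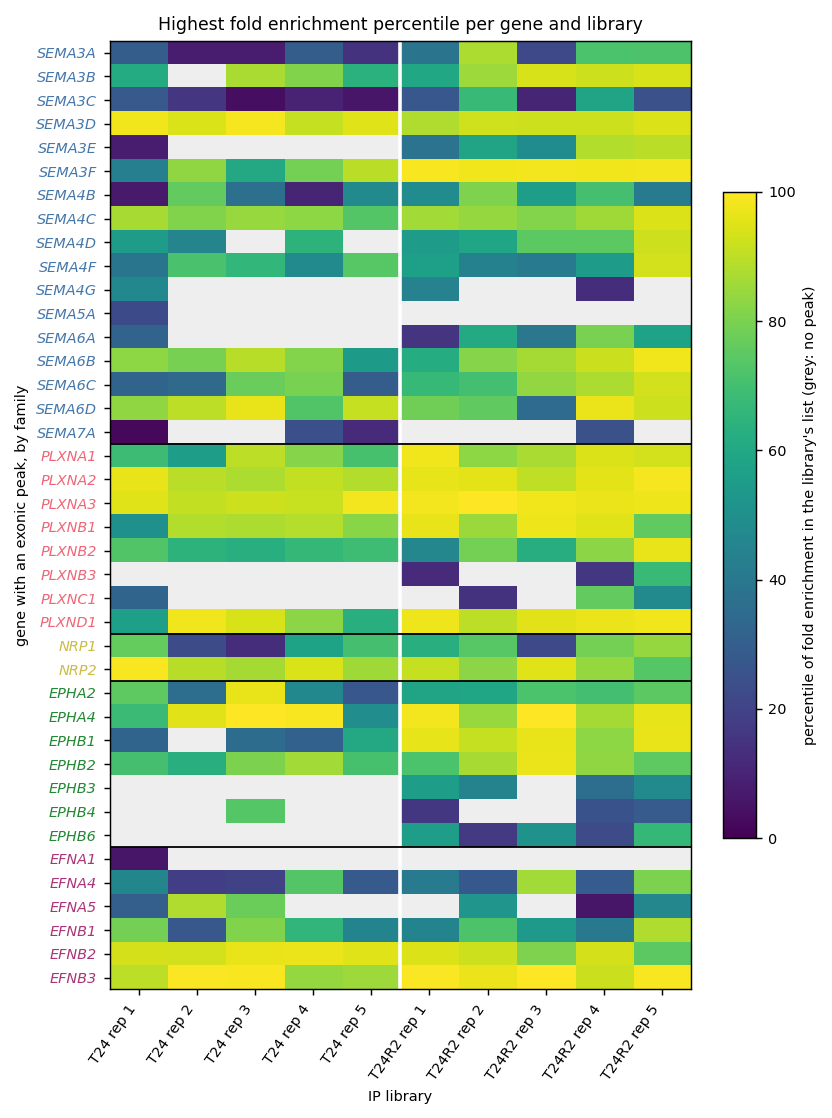
Each row is one of the 40 marked guidance genes, grouped by family, and each column is 1 pull-down library. Colour gives the percentile, within the library's list, of the gene's strongest exonic peak, and grey means no peak. The 25 genes marked in all 10 libraries form unbroken rows, while EPHB6, EPHB3 and PLXNB3 have colour in T24R2 columns only.

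The percentile of a gene in a library is that of its strongest exonic peak, at any position. A gene with more peaks thus has more values from which the highest is taken. Among the semaphorins, SEMA3F and SEMA3D had the highest median percentiles over the 10 libraries. SEMA3C and SEMA3A had the lowest of the 10 genes marked in all of them. The place of SEMA3F came from T24R2, with a mean of 98.2 against 71.1 in T24, where SEMA6D (86.8), SEMA4C (81.7) and SEMA6B (77.5) were higher. The strongest peak of SEMA3D, a secreted ligand, stood between percentiles 88.2 and 98.6 in the 10 libraries (median 93.6). SEMA3F, a secreted ligand that binds NRP2, ranged from 43.2 to 98.9 (median 93.7). The class 6 transmembrane ligands were also high, with medians of 86.6 for SEMA6D (35.0 to 97.1), 82.3 for SEMA6B (54.4 to 98.0) and 73.6 for SEMA6C (29.4 to 93.1). Of the class 4 transmembrane ligands, SEMA4C had a median of 84.3 (73.2 to 94.6), SEMA4F of 55.9 (38.9 to 93.3) and SEMA4B of 48.1 (7.10 to 80.7). SEMA3A, the classical collapsing ligand of the NRP1 and plexin A complex, had a median of 29.5 (7.43 to 87.6), and SEMA3C one of 20.4 (3.55 to 67.5). Neighbours in this order overlapped in their ranges.

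Of the plexins, receptors for the semaphorins above, PLXNA3 had the second highest median of all guidance genes, 97.3, with every library between 90.9 and 99.7. PLXND1, the receptor for SEMA3E, had a median of 94.7 (56.3 to 97.9). PLXNA2 had a median of 93.4 (87.5 to 98.5) and, with 15 regions, more regions than any other guidance gene. Medians were 88.0 for PLXNB1, the receptor for SEMA4D (50.2 to 97.4), 85.1 for PLXNA1 (56.2 to 98.0) and 67.7 for PLXNB2 (46.1 to 96.8). Of the co-receptors, NRP2 had a median of 88.0 (73.5 to 99.1) and NRP1 of 66.7 (13.1 to 84.1).

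EFNB3, EPHA4 and EFNB2 led the Eph and ephrin families. EFNB3, a transmembrane ephrin, had the highest median of all 25 genes, 98.2, with a single region in its 3′UTR and no library under 84.3. In T24 alone its mean of 91.6 was below those of SEMA3D (95.5), EFNB2 (95.1) and PLXNA3 (93.6). EPHA4, a receptor that binds ephrins of both classes, had a median of 96.0 (48.9 to 99.9). EPHB2 had a median of 77.9 (63.0 to 97.2) and EPHA2 of 64.4 (27.1 to 96.8). EPHA2 carried 10 regions and 74 peaks. Those of its regions that were called in all 10 libraries had medians of 9.64 to 44.8, below the median of the gene. EFNB2, a ligand of EPHB4 with a role in vessels, had a median of 93.4 (74.8 to 97.1), EFNB1 of 60.0 (27.0 to 88.0) and EFNA4, the only A-class ephrin marked in all libraries, of 34.9 (18.6 to 86.1).

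Guidance genes were marked in more T24R2 than T24 libraries 11 times, in more T24 libraries 3 times and in equal numbers 26 times. That is 27.5% and 7.5% of the 40 marked genes, against 31.5% and 10.7% of all 10237 marked genes. Of the 3 with more T24 libraries, EFNA1 and SEMA5A were marked in T24 replicate 1 alone. Without that library 12 genes had a higher share of T24R2 libraries and 1, SEMA7A, a higher share of T24 libraries, 31.6% and 2.63% of 38, against 32.4% and 12.6% of all 10173 genes then marked. Per library, 36, 27, 29, 29 and 28 guidance genes were marked in T24 replicates 1 to 5 (29.8 ± 3.56, SD, n = 5) and 35, 34, 31, 38 and 36 in T24R2 (34.8 ± 2.59). Without T24 replicate 1, a library singled out from these same counts, the T24 mean was 28.2 ± 0.957 (n = 4), and all 5 T24R2 libraries then lay above every T24 library. Over all protein-coding genes the lines were apart even with all 10 libraries, at 6678 to 7570 marked genes in T24 and 7774 to 8931 in T24R2. Per 1000 marked genes of the same library the guidance gene counts were 4.13 ± 0.462 and 4.28 ± 0.275, a difference of 0.149 that is smaller than the spread between libraries. Without T24 replicate 1 the T24 value was 3.93 ± 0.0893 (n = 4) and the difference 0.353, larger than either SD, although the ranges still overlapped (3.83 to 4.04 in T24, 3.99 to 4.62 in T24R2). With each list reduced to its strongest 17203 peaks, 46 guidance regions were called in more T24R2 and 28 in more T24 libraries, 38.7% and 23.5% of those left, against 35.6% and 26.4% of all exonic regions.

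**Figure D2:**
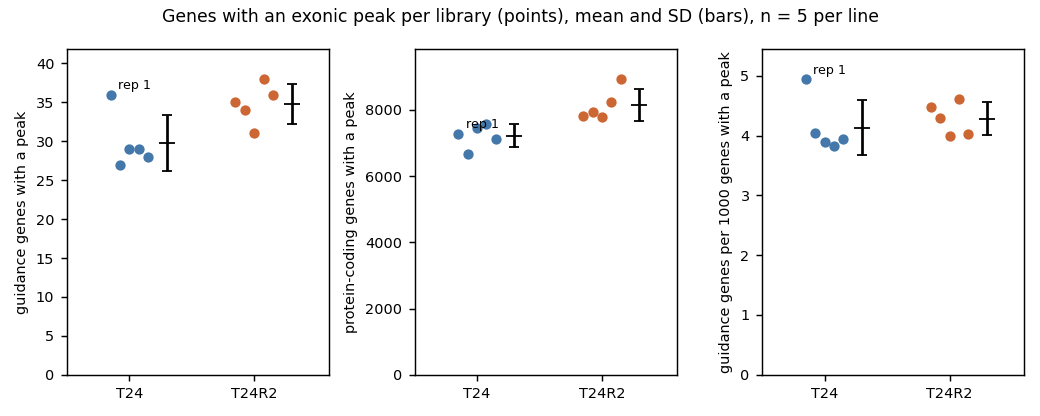
Points are libraries and bars give mean and SD (n = 5 per line), for guidance genes with a peak (left), protein-coding genes with a peak (middle) and guidance genes per 1000 of these (right). T24 replicate 1 lies at 36 guidance genes, inside the T24R2 range of 31 to 38 and above the 27 to 29 of the other T24 libraries, although its 7278 marked genes lie within the T24 range.

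Within T24, replicate 1 alone marked 6 guidance genes, namely SEMA3E, SEMA4G, SEMA5A, SEMA6A, PLXNC1 and EFNA1, and 4 of them were also marked in T24R2. Of the other T24 libraries only replicate 3 had such a gene, EPHB4. Measured on regions, the overlap of T24 replicate 1 with the other T24 libraries (mean Jaccard index 0.537) was the lowest of any library with its own line, and close to its overlap with the T24R2 libraries (0.511).

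A difference of at least 3 libraries with more in T24R2 was found for 5 genes, and for 0 genes the reverse. The 5 were EPHB6, EPHB3, SEMA3E, SEMA6A and PLXNB3, 12.5% of the marked guidance genes against 10.5% of all marked genes; in the other direction the share over all genes was 3.32%. All but PLXNB3 reached an unadjusted p under 0.05 in Fisher's exact test (two-sided) of libraries with and without a peak, which makes 4 genes, 10% of the marked guidance genes against 5.8% of all marked genes, and 0 had more T24 libraries, against 2.28%. After Benjamini-Hochberg adjustment over the 10237 marked genes no gene passed, 0% of all genes and of guidance genes, since the smallest p that 5 against 5 libraries allow, 0.00794, became 0.203.

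EPHB6, an Eph receptor whose kinase domain lacks catalytic activity, was marked in 5 of 5 T24R2 libraries and in 0 of 5 T24 libraries. It was the only guidance gene with that pattern, which 2.39% of all marked genes showed, while 1.51% and no guidance gene showed the reverse. Its percentiles in T24R2 replicates 1 to 5 were 55.9, 16.9, 51.5, 23.4 and 66.4 (exact p = 0.00794, adjusted p = 0.203). In replicates 1 to 4 the peak was in the coding region chr7:142863972-142864280, in an exon of 784 nt, and in replicate 5 it lay in the 5′UTR, so no single position was shared by all 5. The EPHB6 sequence shown above is from the coding region. EPHB6 was marked in 3 more T24R2 than T24 libraries (exact p = 0.167) both at a −log10 q of at least 5 and with equal list lengths, and in 1 more at a −log10 q of at least 10 (exact p = 1), so that the pattern was lost in these settings.

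EPHB3, a receptor for B-class ephrins, was marked in 0 T24 and 4 T24R2 libraries (exact p = 0.0476, adjusted p = 0.589). The region chr3:184581608-184581959, in the 3′UTR with its median summit 69 nt past the stop codon, was called in T24R2 replicates 1, 2, 4 and 5 at percentiles 27.3, 44.7, 36.3 and 47.5. The difference in libraries fell from 4 to 1 with equal list lengths and to 0 at a −log10 q of at least 10 (exact p = 1 in both). PLXNB3, a semaphorin 5A receptor, was marked in 0 T24 and 3 T24R2 libraries (exact p = 0.167) by 4 separate coding regions, each found in a single library.

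SEMA3E, a secreted ligand that signals through PLXND1, was marked by a single coding region in the last exon, chr7:83367714-83368072. Its percentile was 8.02 in T24 replicate 1, no peak was called in the other T24 libraries, and T24R2 replicates 1 to 5 stood at 38.1, 58.3, 48.6, 88.3 and 89.5. Presence in 1 against 5 libraries had an exact p = 0.0476 and an adjusted p = 0.589 (Fisher's exact test). SEMA6A, a transmembrane ligand of plexins A2 and A4, was marked in the 3′UTR at chr5:116446271-116446767. It stood at 32.4 in T24 replicate 1 alone and at 15.4, 61.1, 39.7, 80.0 and 58.0 in T24R2, with the T24 value inside the T24R2 range. Without T24 replicate 1 both genes were marked in 0 of 4 T24 and 5 of 5 T24R2 libraries. With equal list lengths, and at either −log10 q limit, SEMA3E was marked in 0 T24 and 5 T24R2 libraries (exact p = 0.00794), whereas the difference for SEMA6A fell to 2 or 3 libraries (lowest exact p = 0.167).

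By position, the peaks of the guidance genes fell into 149 of the 43676 merged regions. Of these 48 were called in all 10 libraries (32.2% against 21.9% of all regions), 41 in a single library (27.5% against 27.9%) and 60 in 2 to 9. Of the 41 found once, 31 were from T24R2 and 10 from T24 libraries. The T24R2 lists were longer, and the same split over all regions found once is not given here. Nothing particular to the guidance genes can therefore be read from it. More T24R2 than T24 libraries had the region in 72 cases, 48.3%, and fewer in 23, 15.4%, against 46.8% and 15.7% of the 25300 regions with an exonic summit in any protein-coding gene. Both shares were close to those of the other exonic regions. At 9 of the 149 regions a summit also lay in an exon of another annotated gene, and the peak lists carry no strand. Among them were the only region of SEMA4G, shared with MRPL43, and the only region of SEMA5A, shared with ENSG00000250619. Whether these peaks belong to the semaphorins cannot be told from the lists.

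**Figure D3:**
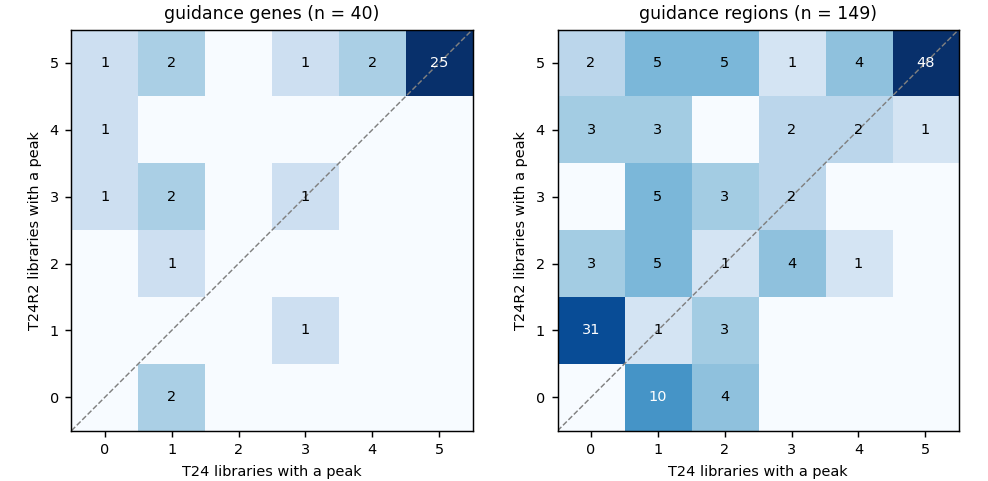
Each square counts the guidance genes (left, 40) or regions (right, 149) with a peak in the given number of T24 libraries (horizontal axis) and T24R2 libraries (vertical axis). Counts above the dashed diagonal had more T24R2 libraries. The largest squares are genes and regions called in all 10 libraries, 25 and 48, and regions called in 1 T24R2 library, 31. The T24R2 lists were longer than those of T24.

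Of the guidance regions 2 were called in 5 T24R2 and 0 T24 libraries, and 0 regions showed the reverse. They made up 1.34% of the guidance regions, against 3.02% of all regions, and 1.05% of all regions showed the reverse. With more T24R2 libraries 10 guidance regions had an unadjusted exact p under 0.05, 6.71% against 7.11% of all regions, and 0 with more T24 libraries, against 2.09%. None passed after adjustment over all regions (0% of all regions), the smallest adjusted p being 0.195. Of these 10 regions 3 were in EPHB1 and 1 each in EPHB3, EPHB6, NRP2, PLXNA2, SEMA3E, SEMA4D and SEMA6A.

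EPHB1, a receptor for B-class ephrins, held 3 of these 10 regions, more than any other guidance gene. All 5 of its regions were called in more T24R2 than T24 libraries. The region in the 5′UTR, chr3:134795251-134795464, was absent from all T24 lists and stood at percentiles 45.1, 13.2, 69.3, 43.6 and 76.4 in T24R2 (exact p = 0.00794, adjusted p = 0.195). At a −log10 q of at least 10 it was no longer called in all 5 T24R2 libraries and 0 T24 libraries. The coding region chr3:134951361-134952049 in exon 3 was called in T24 replicates 1 and 4, at 32.4 and 31.0, and in T24R2 replicates 1 to 5, at 89.5, 47.8, 79.1, 52.6 and 79.5. Exons of another annotated gene (ENSG00000288700) also overlap that region.

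The other EPHB1 regions followed the same order. The coding region chr3:135106296-135106548 was called in 0 T24 libraries and in T24R2 replicates 1 to 4, at 26.5, 69.8, 14.4 and 79.5 (exact p = 0.0476, adjusted p = 0.517). The region chr3:135258923-135259688, with its median summit 231 nt past the stop codon, was called in T24 replicates 1, 3 and 5, at 26.5, 35.4 and 38.3, and in T24R2 replicates 1 to 5, at 96.2, 91.1, 96.7, 83.1 and 96.6. Its fold enrichment was 5.55 to 6.32 in these 3 T24 libraries and 11.7 to 17.9 in T24R2. T24 replicates 2 and 4 gave no value for it. The distal 3′UTR region chr3:135259841-135260265 was found in T24 replicate 5 at 60.4 and in T24R2 at 11.0, 41.1, 10.4, 12.1 and 18.7, so that the T24 value was the highest of the 6 (exact p = 0.0476 for presence, adjusted p = 0.517). As a gene EPHB1 was marked in 4 T24 and 5 T24R2 libraries, so its count of libraries alone does not show these differences. The strongest EPHB1 peak of each library stood between 31.0 and 60.4 in the 4 T24 libraries (39.8 ± 13.8). In T24R2 it stood between 83.1 and 96.7 (92.7 ± 5.89), always at chr3:135258923-135259688. In T24 its position varied, lying in exon 3 in replicates 1 and 4. It lay at chr3:135258923-135259688 in replicate 3 and in the distal 3′UTR region in replicate 5. These means therefore compare unlike positions.

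NRP2, the co-receptor for SEMA3F, carried the second region called in T24R2 alone, in coding exon 2, chr2:205697443-205697660. It stood at 28.0, 27.4, 25.3, 82.8 and 24.9 in T24R2 replicates 1 to 5, so that replicate 4 was far above the rest. The region was no longer called in T24R2 alone in all 5 libraries with equal list lengths or at a −log10 q of at least 10. NRP2 also held regions called in all 10 libraries, in the 5′UTR and 123 nt past the stop codon. Their percentiles differed between the lines by −9.30 (SE 10.7) and 2.86 (SE 10.0) points.

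Further 3′UTR regions were called in more T24R2 libraries in SEMA4D and PLXNA2. In SEMA4D, a transmembrane ligand of PLXNB1, all 4 regions had more T24R2 libraries. The SEMA4D region chr9:89361055-89362420 was found in T24 replicate 4 at 19.8 and in T24R2 replicates 1 to 5 at 54.8, 55.9, 60.2, 74.9 and 92.4 (exact p = 0.0476, adjusted p = 0.517). In PLXNA2 the region chr1:208025326-208026086 was found in T24 replicate 4 at 29.4 and in T24R2 at 51.1, 21.7, 25.3, 37.2 and 16.7, overlapping. A more distal PLXNA2 region, chr1:208022868-208023394, was found in T24 replicates 3 and 5 at 42.0 and 51.2 and in T24R2 at 34.7, 86.9, 90.3, 95.1 and 79.5 (exact p = 0.167).

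The direction of strength did not always follow that of presence. The SEMA4D 3′UTR region chr9:89377402-89377803 was found in T24 replicates 2 and 4 at 45.3 and 64.7 and in T24R2 replicates 1 to 5 at 40.9, 59.0, 54.7, 28.8 and 16.7, a lower mean in T24R2 with overlap (exact p = 0.167 for presence). The SEMA4D coding region chr9:89379163-89379663, also called in 2 T24 and 5 T24R2 libraries, had mean percentiles of 58.2 in T24 and 50.3 in T24R2.

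The strength of peaks was compared in the 48 guidance regions, from 25 genes, that every library called. The test was limma on the percentile with Benjamini-Hochberg adjustment over the 9577 regions called in all 10 libraries. One guidance region, in SEMA4B, was higher in T24R2 and 0 were lower, while 0.731% of all 9577 regions were higher and 0.167% lower. The single call is 2.08% of the 48. In simulated data the limma test recovered 1% of planted shifts of 20 points and 31% of those of 40 points. A region that was not called may therefore still differ between the lines. At an unadjusted limma p under 0.05, 9 guidance regions were higher and 0 lower, 18.8% and 0% of the 48, against 10.8% and 3.13% of all 9577 regions.

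The SEMA4B region, chr15:90228015-90229619, lies in the last exon with its median summit 764 nt past the stop codon. SEMA4B is a transmembrane class 4 semaphorin. The percentiles were 7.10, 12.8, 7.08, 10.4 and 20.5 in T24 replicates 1 to 5 and 48.4, 80.7, 55.8, 70.5 and 41.2 in T24R2, with no overlap between the lines. The fold enrichment ran from 3.68 to 4.71 in T24 and from 5.91 to 11.9 in T24R2. The mean percentile was 11.6 ± 5.52 for T24 and 59.3 ± 16.1 for T24R2 (n = 5 each, SD), a difference of 47.8 points (SE 8.17, limma adjusted p = 0.0218, exact permutation p = 0.00794, the smallest possible). The estimate stayed above 0 in every alternative run, but the call was lost on the log2 fold scale (0.87, SE 0.25, limma adjusted p = 0.103), in 4 other settings and without any one of T24 replicate 3 (adjusted p = 0.0528), T24R2 replicate 2 (0.052) or T24R2 replicate 4 (0.0643), all from limma.

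**Figure D4:**
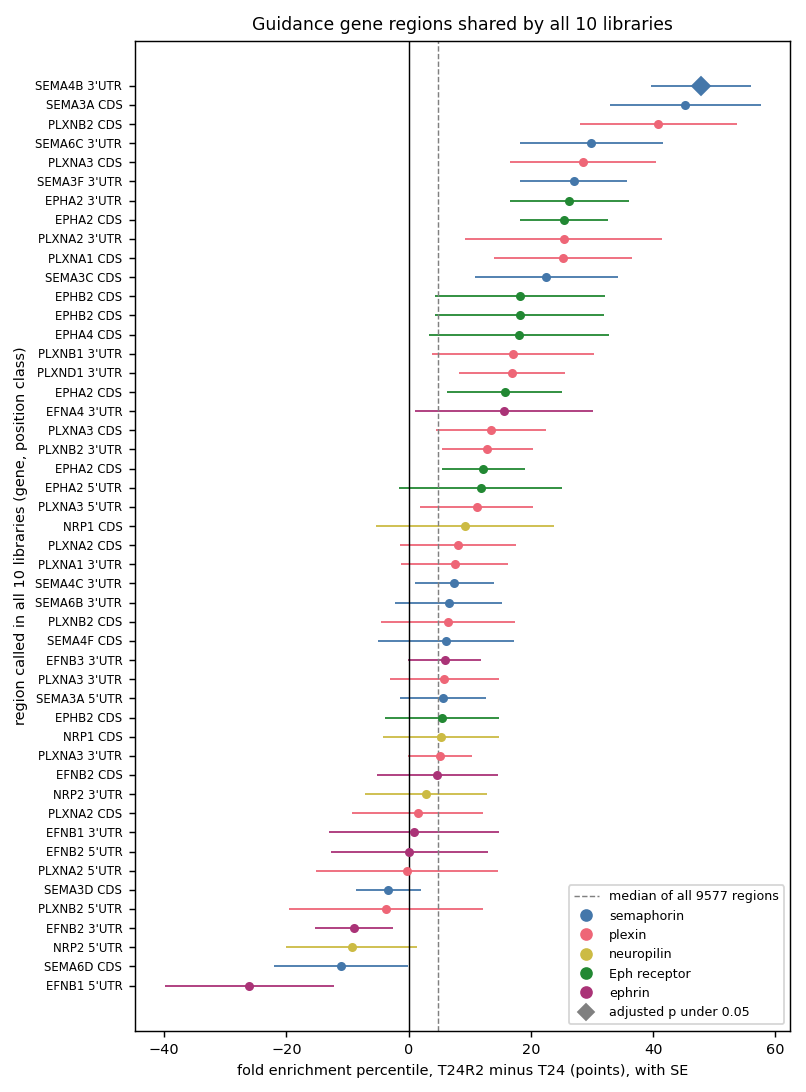
Points give the difference in fold enrichment percentile, T24R2 minus T24, of each of the 48 guidance regions called in all 10 libraries, with the standard error from limma, coloured by family. The diamond is the SEMA4B region, at 47.8 points, and 41 of the 48 points lie right of 0, where the median of all 9577 regions is 4.83 points (dashed line).

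Most of the 48 differences were above 0. Of the guidance regions 41, 85.4%, had a higher mean percentile in T24R2, with a median difference of 8.63 points, against 64.4% and 4.83 points over all 9577 regions. With percentiles taken among the shared regions alone, which centres the comparison, 35 guidance regions, 72.9%, all of them among the 41, were above 0 with a median of 4.89 points, against 50.2% and 0.07 points over all regions. By family the median difference was 18.0 points for the 9 Eph receptor regions (5.43 to 26.3, all above 0), 11.1 for the 17 plexin regions (15 above 0), 7.48 for the 11 semaphorin regions (9 above 0), 4.07 for the 4 neuropilin regions (3 above 0) and 0.86 for the 7 ephrin regions (5 above 0). Regions of 1 gene share their transcript and are not independent, and the differences between families were not tested.

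In 4 guidance regions all T24R2 percentiles lay above all T24 percentiles, a pattern shown by 3.63% of all regions, and in 0 all lay below, against 0.867%. Apart from SEMA4B these were in EPHA2, SEMA3F and PLXNA3, and none of the 3 passed the adjusted limma test. The EPHA2 coding region in exon 3, chr1:16148394-16149162, stood at 16.7, 5.00, 4.24, 5.64 and 10.8 in T24 and at 24, 47.1, 25.5, 47.9 and 25.2 in T24R2 (difference 25.5, SE 7.18, limma adjusted p = 0.132). The SEMA3F 3′UTR region, chr3:50187972-50189047, stood at 43.2, 83.5, 60.3, 78.9 and 89.7 in T24 and within 97.7 to 98.9 in T24R2 (difference 27.0, SE 8.78, limma adjusted p = 0.19). The PLXNA3 distal 3′UTR region, chrX:154476391-154477271, was high in both lines, at 90.0 to 95.0 in T24 and 95.5 to 98.4 in T24R2 (difference 5.18, SE 5.20, limma adjusted p = 0.711).

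Other regions with large estimates overlapped between the lines. The SEMA3A region near the stop codon, chr7:83960712-83961858, had 13.0 ± 12.8 in T24 and 58.3 ± 27.1 in T24R2 (difference 45.3, SE 12.3, limma adjusted p = 0.121). The PLXNB2 coding region in exon 3, chr22:50289545-50290669, had 29.7 ± 25.8 and 70.5 ± 18.3 (difference 40.9, SE 12.9, limma adjusted p = 0.179). The lowest estimate was that of the EFNB1 5′UTR region, −26.1 points (SE 13.8, limma adjusted p = 0.429).

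The marked positions lay mainly in coding sequence and in 3′UTRs. Of the 149 guidance regions 82 were coding, 47 in a 3′UTR, 18 in a 5′UTR and 2 in noncoding exons, and of the 48 called in all libraries 22 were coding, 18 in a 3′UTR and 8 in a 5′UTR. Per library, 49.6% ± 3.54 of guidance gene peaks in T24 and 48.8% ± 2.94 in T24R2 were coding, against 56.4% ± 0.986 and 56.3% ± 0.899 over all genes. In 5′UTRs lay 14.1% ± 2.22 and 13.9% ± 0.42, against 8.59% ± 0.509 and 8.65% ± 0.555. In 3′UTRs lay 35.5% ± 2.28 and 36.7% ± 3.27, against 30.9% ± 0.571 and 30.4% ± 0.896. The lines differed by less than the spread between libraries in each class.

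Of the 48 regions called in all 10 libraries, 21 from 20 genes had their median summit within 400 nt of the stop codon. The share over all protein-coding genes is not given here. The semaphorins supplied 9 of the 21, 1 region in each of 9 genes. In the secreted class 3 ligands SEMA3A, SEMA3C and SEMA3D the summit lay at −114, −119 and −137 nt relative to the stop codon, in the last exon. In the transmembrane ligands SEMA6B and SEMA6C it lay 38 and 72 nt past it, and in SEMA4C 134 nt past it. NRP1 and EFNB1 had summits at −38 and −31 nt, and PLXND1 had its only region 93 nt past it.

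**Figure D5:**
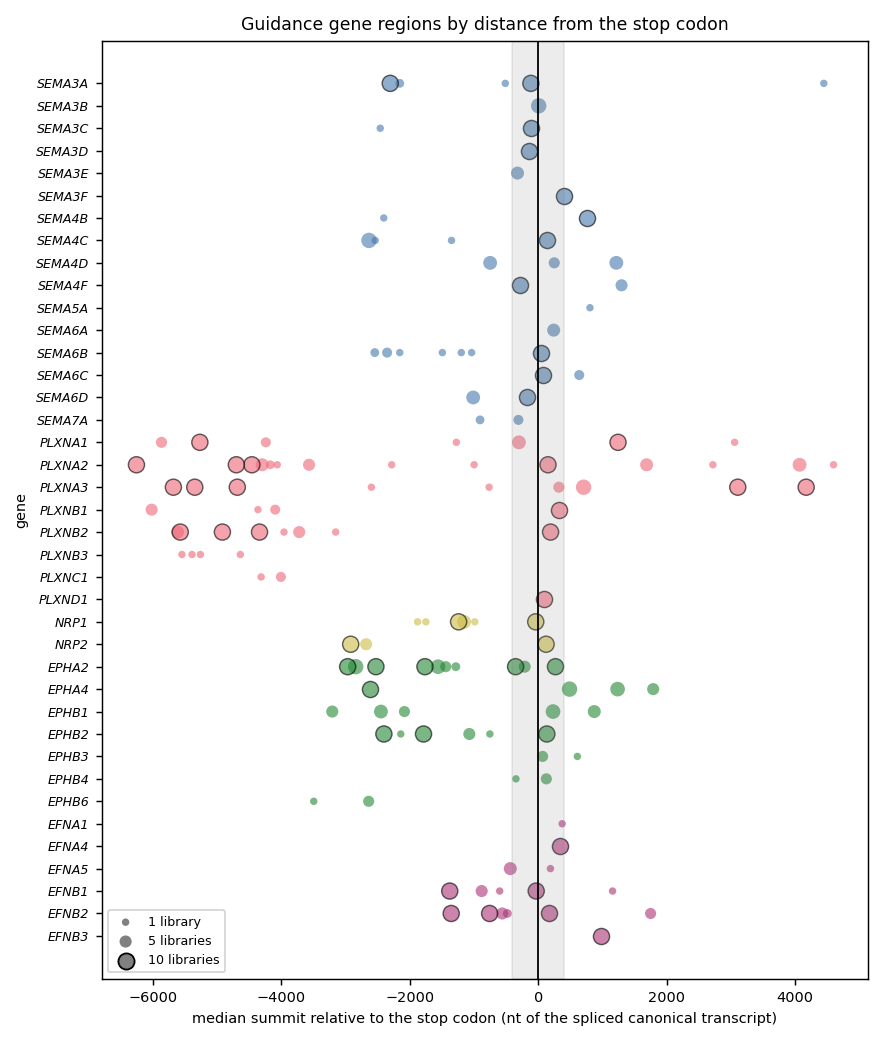
Each point is the median summit of a guidance gene region, placed by its distance in nucleotides from the stop codon of the spliced canonical transcript (negative is upstream), with 1 row per gene and colours by family. Point size grows with the number of libraries, black outlines mark regions called in all 10, and the grey band spans 400 nt on each side of the stop codon. The band holds 21 of the 48 outlined points, and every family also has outlined points far upstream.

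The coding regions away from the stop codon were often in long internal exons of the receptors. Of 285 guidance gene summits in internal coding exons, 112, or 39.3%, were in exons of at least 400 nt, which hold 11.8% of the internal coding bases of these genes. These summits count a site again in each library that called it. Of the 15 regions in an internal coding exon called in all 10 libraries, 8 were in exons of at least 400 nt. The same shares over all protein-coding genes are not given here, so nothing particular to the guidance genes can be read from them. In EPHA2, EPHA4, EPHB2 and EPHB1 a region lay in exon 3, which is 670, 664, 685 and 682 nt long and codes for the ephrin-binding domain. It was called in all 10 libraries in the first 3 genes and in 2 T24 and 5 T24R2 libraries in EPHB1. Among the plexins, exon 2 of PLXNA1 and of PLXNA2, of 1267 and 1268 nt, and exon 3 of PLXNB2, of 1081 nt, each held a region called in all 10 libraries, as did exons 2 and 3 of PLXNA3, of 621 and 540 nt. These exons code for part of the extracellular sema domain.

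Related genes were read from lists that fix other members of these pathways. Of 29 co-receptors and effectors of semaphorins and plexins 22 were marked, 10 in all libraries. An unadjusted p under 0.05 by Fisher's exact test was found for 6 of them with more T24R2 libraries and for 0 with more T24 libraries, against the 5.8% and 2.28% over all marked genes. These were the adhesion co-receptors NRCAM (0 of 5 T24 and 5 of 5 T24R2 libraries) and L1CAM (1 and 5), the small GTPase RRAS (0 and 5), the exchange factors FARP1 (0 and 4) and FARP2 (1 and 5), and the collapsin response protein DPYSL4 (0 and 4). None passed after adjustment (adjusted p = 0.203 at the lowest, Fisher's exact test).

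Of 21 effectors of Eph receptors and ephrins 17 were marked, 12 in all libraries, and ANKS1B alone had an unadjusted p under 0.05 (Fisher's exact test, adjusted p = 0.203), with 0 T24 and 5 T24R2 libraries, against the 5.8% and 2.28% over all marked genes in the 2 directions. Of 23 other guidance ligands and receptors (slits, netrins and their receptors) 13 were marked, 7 in all libraries. The netrin receptor UNC5A was marked in 0 T24 and 5 T24R2 libraries and the slit receptor ROBO2 in 5 and 0 (exact p = 0.00794 and adjusted p = 0.203 for each). Of the regions of these lists called in all 10 libraries, limma called 1 of 21 higher in T24R2 for the Eph and ephrin effectors, 0 of 15 for the semaphorin and plexin partners and 0 of 13 for the other ligands and receptors, and 0 lower in any of the lists. The shares over all 9577 regions were 0.731% higher and 0.167% lower.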

How the data were processed

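Deposited files were 1 peak list per pull-down library and 1 set of merged regions (43676). Per the study's methods the authors aligned reads to hg38 with GENCODE 39 using STAR 2.7.0, kept unique, deduplicated reads with SAMtools 1.10 and called peaks over input with MACS2 3.0.0a6. The authors' peak lists give a fold enrichment (a ratio), a −log10 p-value and q-value and a score, and every deposited peak had a −log10 q of at least 2. Peak calls depend on read depth, which the lists do not hold. The 10 input libraries enter only through these calls.

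Summits were assigned to exons of GENCODE 44 (version 39 was not used here), coding before 5′UTR before 3′UTR. Presence per gene and region was tested by Fisher's exact test, and the fold percentile of regions called in all 10 libraries by limma 3.58.1 in R 4.3.3, each with Benjamini-Hochberg adjustment over all genes or regions. The scripts (Python 3.11.15, scipy 1.17.1) were tested on simulated data. Genes named in detail were those marked in all 10 libraries, those that differed by at least 3 libraries and those with a region called in a single line or past the limma test. Values in every library are for the 12 regions that differed most in libraries called, ties broken by the difference in mean percentile. The SEMA4B region and the SEMA4D regions at 89377402 and 89379163 lie outside this rule. The EPHB1 region at 135258923, and those of EPHA2, SEMA3F, PLXNA3, SEMA3A, PLXNB2 and EFNB1 with percentile differences, were added after their values were seen. Members and lists were chosen with earlier results of these data known. Alternatives were other q, fold and overlap limits, equal list lengths, other scales, omission of each library in turn and a block by replicate number.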

Additional observations from a re-analysis of the deposited data

Results flagged for a closer look

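Among 20 groups of 5 libraries 3 held a library far from the other 4 by Dixon's test at its 95% value, where chance flags about 5% of groups. T24 replicate 1 marked 36 guidance genes, the other T24 libraries 27 to 29. The same library had 4.95 guidance genes per 1000 marked genes, the others 3.83 to 4.04. In T24R2 replicate 2, 43.6% of guidance gene peaks were coding, against 49.5% to 50.8% in the other T24R2 libraries.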

How the results depend on the processing

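Of 341 values of group results under an alternative 304 stayed close to the main value and 37 moved, and of 90 values of single genes or regions 72 kept their side of the threshold, 16 lost it and 2 gained it (PLXNB3 without T24R2 replicate 2 or 3); 0 reversed. At −log10 q of at least 10, 16 guidance genes were marked in all 10 libraries. Genes called in T24R2 alone numbered 2 at −log10 q of at least 10 and at a fold of at least 4, 4 under the looser rule of at least 4 against at most 1 library (2.3%, 2.13% and 6.76% of all marked genes), and 1 to 3 with 1 library left out (3 without T24 replicate 1, 2 without T24R2 replicate 3). Regions called in T24R2 alone numbered 5 at −log10 q of at least 5 (2.74% of all regions) and where a peak had to cover 50% of the region (2.25%), 4 at −log10 q of at least 10 and with equal list lengths (2.65% and 1.79% of all regions, with 1.6% in T24 alone at equal lengths), 13 under the looser rule (8.36% of all regions pass it), and 2 to 4 with 1 library left out (4 without T24 replicate 1, T24 replicate 4 or T24R2 replicate 5). With 1 library left out, 2.51% to 2.93% of all marked genes and 3.13% to 3.91% of all regions were called in T24R2 alone. Genes with an unadjusted exact p under 0.05 and more T24R2 libraries numbered 2 at both q limits. With equal list lengths there was 1, SEMA3E. Such regions numbered 6 at −log10 q of at least 10 and 4 with equal list lengths. With more T24 libraries there was 1 such region with equal list lengths and 1 with 50% cover. For these counts of unadjusted p the shares over all genes and regions in the same settings are not given here. The 5′UTR share differed by −1.92 points (−0.23 in the main setting) at a fold of at least 4, where the fold percentile of the guidance peaks differed by −1.33 points, turning the main difference of 7.02 (45.7 ± 6.98 and 52.7 ± 5.81). The sense DRACH share differed by −2.13 points at −log10 q of at least 10, −2.28 in windows of 25 nt and −4.19 for GGAC alone, against 0.47 in the main setting. The limma test called 0 regions higher on the log2 fold scale, on percentiles among shared regions, on −log10 q percentiles and by the exact permutation test, and 0 to 1 with 1 library left out (0 without T24 replicate 3, T24R2 replicate 2 or T24R2 replicate 4); on −log10 q percentiles 1 region, SEMA3D, was lower. The cause of these changes was not tested.

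Replicate numbers did not pair the libraries: correlations of deviations ran from −0.03 to 0.111, with 1 of 5 over 0.1 and 1 T24 library closest to its own number. With the replicate block, 0 genes and 0 regions had an unadjusted p under 0.05, since 5 pairs allow no exact McNemar p under 0.0625, and limma called 0 regions (SEMA4B adjusted p = 0.112).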

Other observations

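Summits in introns of the guidance genes, outside all of their exons, numbered 13, 8, 11, 11 and 9 in T24 replicates 1 to 5 and 15, 18, 16, 20 and 18 in T24R2, 139 in all. SEMA3A alone held 92 of them, and the other 47 lay in 16 genes. The T24R2 lists were also longer, and the part of list length in these counts was not tested. These peaks were used in none of the comparisons above.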
